A study of Mus musculus with 2 samples.

Results

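Filamins and the adaptor proteins that meet them at focal adhesions were examined as a set of 9 genes, of 18193 named on the array, in Neuro2a cells, a mouse neuroblastoma line, after transfection with an siRNA against Tmem132a. The genes were Flna, Flnc, Fblim1, Fermt2, Zyx, Tgfb1i1, Pxn, Vcl and Tln1, and they were measured by 19 probe sets annotated to 1 of these symbols alone, of 45037 probe sets on the array. Flna and Fblim1 were chosen by their measured signals, which were strongly lower with the Tmem132a siRNA in these same data, and the other 7 were added as family members or adhesion partners. The signals below are therefore a description of how these genes were chosen as well as of the cells.

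The series holds 2 samples, Neuro2a cells given the siRNA against Tmem132a (also called mKIAA1583) and Neuro2a cells given a non-specific control siRNA. Both are total RNA of the same line, each on 1 Affymetrix Mouse Genome 430 2.0 array, and neither the siRNA sequences nor the time after transfection is given in the sources used here. With 1 array per group nothing could be tested and no value carries an error between cultures, so differences are given by size, with a precision limited by the number of arrays. Values are MAS5 signals on a linear scale, and differences are log2 ratios, Tmem132a siRNA over control siRNA.

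Focal adhesions are the sites where integrins, the receptors for extracellular matrix, are tied to actin filaments inside the cell. Talin and kindlin bind integrin tails and switch the receptors on, vinculin strengthens the link from talin to actin, and filamins crosslink actin and also bind integrin tails. Adaptors with LIM domains, which are zinc-binding protein interaction modules, gather around this core: migfilin (the product of Fblim1) bridges filamin and kindlin-2, paxillin and its relative Hic-5 (the product of Tgfb1i1) are scaffolds for signalling proteins, and zyxin collects on adhesions and stress fibres under tension.

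The median signal was 81.9 on the Tmem132a siRNA array and 76.5 on the control siRNA array. Tmem132a itself had a signal of 435.6 with its siRNA and 1825.5 with the control siRNA, 23.9% of the control level. The description of that sample speaks of the control siRNA, unlike its title and treatment. Its group was taken from the title, and its low Tmem132a signal matches that title. Of 16 measured sympathetic neuroblast markers 14 passed the signal filter (a mean signal over both arrays of at least 77.25), among them Phox2a with signals of 4666.5 with the Tmem132a siRNA and 5143.9 with the control siRNA, while the neurofilament genes Nefl and Nefm did not. All 14 had log2 ratios below 0, from -0.51 to -0.03, where 48.2% of all genes past the filter lay below 0. None was past 1.5-fold: 0 of the 14 were at least 1.5-fold lower, beside 9.10% of all genes. The lowest ratios were those of the transcription factor genes Isl1 (-0.51) and Mycn (-0.48). Of 12 fibroblast markers only Fn1, the fibronectin gene, passed, with a log2 ratio of -0.98. The summed signal of that list was 2194.6 with the Tmem132a siRNA and 3489.6 with the control siRNA. Most of that sum was the brightest Fn1 probe set, at 1712.1 with the Tmem132a siRNA and 2711.4 with the control siRNA.

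Of the 9 genes, 2 were at least 2-fold lower with the Tmem132a siRNA, where 2.44% of all 10678 genes past the filter were, and 0 were at least 2-fold higher, where 2.10% of all genes were. At the smaller size of 1.5-fold, 3 were lower and 0 higher, beside 9.10% and 8.83% of all genes. The 3 lower genes were Fblim1, Flna and Tgfb1i1. Flna and Fblim1 were chosen for being lower in these data, so their count at 2-fold follows from that choice. Of the 7 genes added as partners, only Tgfb1i1 was past 1.5-fold. The remaining 6 had gene values between -0.38 and 0.28. The median log2 ratio was -0.28 over the 9 genes and 0.02 over all genes, and 7 of the 9 lay below 0, where 48.2% of all genes did. That median and the count of 7 include the 2 genes chosen for being lower. Every one of the 9 genes had a probe set past the filter, and 3 of their 19 probe sets did not pass.

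**Figure D1:**
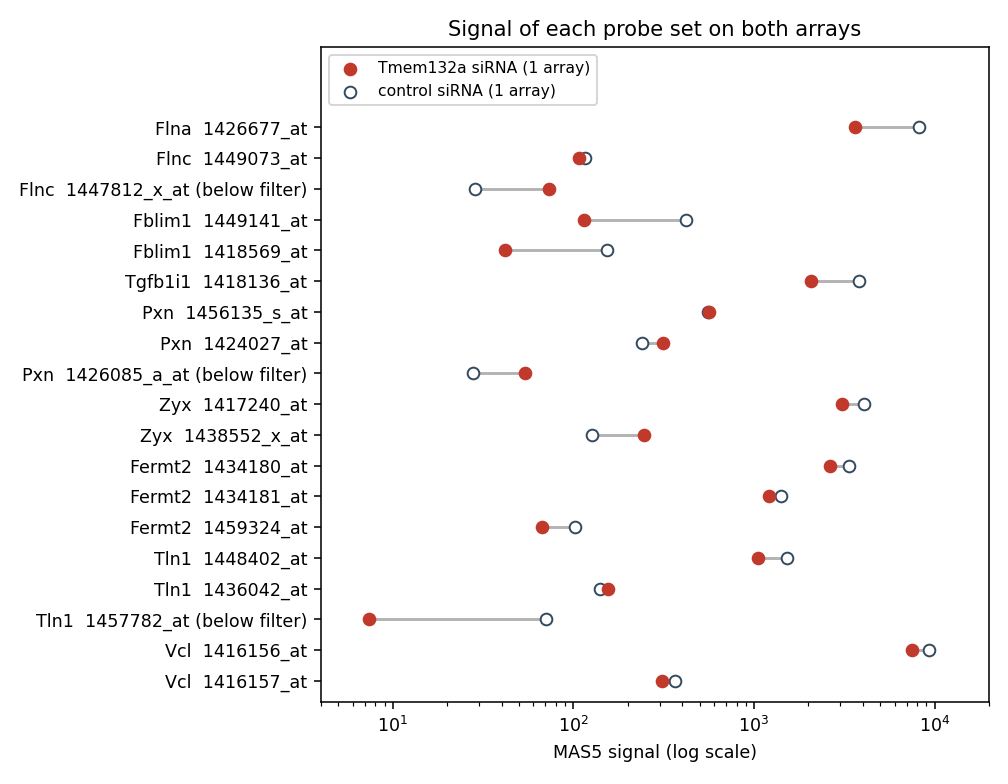
MAS5 signal (horizontal log axis) of each of the 19 probe sets, with 1 point for the Tmem132a siRNA array (filled) and 1 for the control siRNA array (open). The wide gaps to the left among probe sets past the filter belong to Flna (3601.4 against 8141.0), both probe sets of Fblim1 and Tgfb1i1.

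Filamin A, the widely expressed filamin encoded by Flna on the X chromosome, crosslinks actin filaments and anchors membrane proteins to them. Its single probe set, 1426677_at, read 3601.4 with the Tmem132a siRNA and 8141.0 with the control siRNA. The Tmem132a siRNA array thus held 44.2% of the control signal, 2.26-fold less, with a log2 ratio of -1.18. Ratios of bright probe sets varied little on these arrays: among the 1000 probe sets closest in mean signal the SD was 0.32, and 3 had a ratio as low as that of Flna. Flna was chosen for this low ratio, so that rank follows from the choice. No second probe set of Flna was available to set beside it.

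Filamin C, the filamin of skeletal and heart muscle, was dim in these cells. Its probe set past the filter, 1449073_at, had signals of 107.8 with the Tmem132a siRNA and 115.7 with the control siRNA (log2 ratio -0.10). The other, 1447812_x_at, had 73.1 with the Tmem132a siRNA and 28.6 with the control siRNA, below the filter and in the opposite direction (1.35). With no signal filter the gene value of Flnc was 0.63 in place of -0.10, so its direction depends on whether that dim probe set is used. The log2 ratio of Flna was 1.07 below that of Flnc, and this difference was not tested.

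Fblim1, which encodes migfilin, had the lowest ratio of the 9 genes. On 1449141_at the signal was 115.1 with the Tmem132a siRNA and 421.5 with the control siRNA. On 1418569_at it was 41.9 with the Tmem132a siRNA and 153.8 with the control siRNA. Both probe sets gave almost the same ratio, -1.87 and -1.88, although both are annotated with the same source sequence and so may read neighbouring parts of 1 transcript. The gene value was -1.87, or 27.3% of the control level, and 26 of the 10678 genes (0.243%) had a ratio as low. Of the 1000 probe sets closest in signal, 0 had a ratio as low as that of 1449141_at and 9 one as low as that of 1418569_at. Fblim1 was chosen for being lower in these data, so these ranks follow from that choice. The dimmer probe set passed the filter through its control signal, and its signal with the Tmem132a siRNA lay below the threshold. Adding a pseudocount of 79.2 to both signals brought the ratio of Fblim1 to -1.15.

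**Figure D2:**
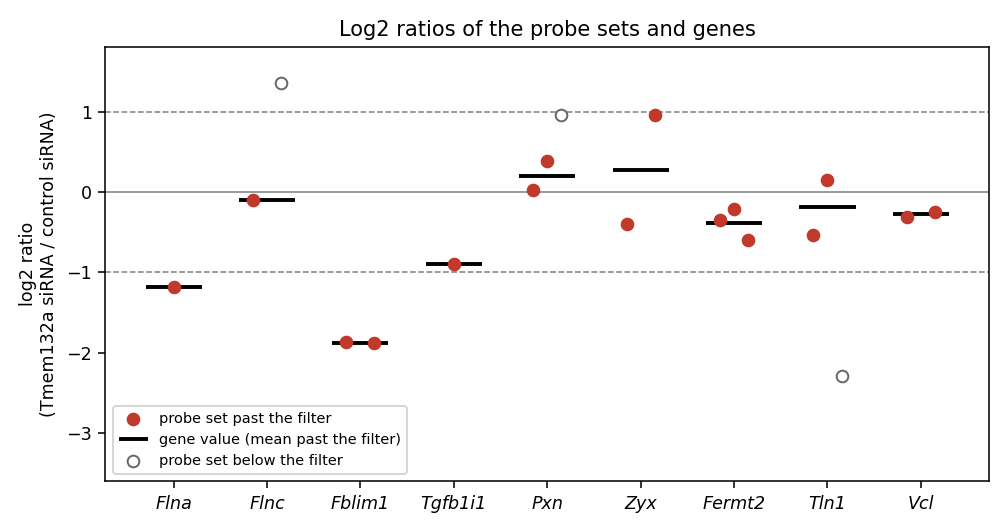
Log2 ratio (Tmem132a siRNA over control siRNA, vertical axis) of each probe set (points) and each gene (bars, the mean of probe sets past the filter), with dashed lines at 2-fold. Fblim1 at -1.87 and Flna at -1.18 lie below the lower line, and the points of Zyx and Tln1 fall on both sides of 0.

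The DNA just before the transcription starts of Flna and Fblim1 is shown because these were the 2 genes past 2-fold, and that of Vcl and Fermt2 because they hold a CArG box, the binding motif of serum response factor (SRF), which is known to drive many actin and adhesion genes. Sequences are from RefSeq on build GRCm38.p6, given 5′ to 3′ on the strand of the gene, and capitals mark matches to the CArG box, to the TEAD core GGAATG (or CATTCC, its reverse complement) and to the AP-1 site TGANTCA. The Flna window is chrX:74246535-74246784 on the minus strand and the Fblim1 window chr4:141606053-141606302 on the minus strand, both with the 250 bases before a start. The Vcl window is chr14:20929148-20929377 on the plus strand, 230 bases that end 21 bases before the start, and the Fermt2 window is a 30-base stretch around its CArG box, chr14:45530250-45530279 on the minus strand.
Flna: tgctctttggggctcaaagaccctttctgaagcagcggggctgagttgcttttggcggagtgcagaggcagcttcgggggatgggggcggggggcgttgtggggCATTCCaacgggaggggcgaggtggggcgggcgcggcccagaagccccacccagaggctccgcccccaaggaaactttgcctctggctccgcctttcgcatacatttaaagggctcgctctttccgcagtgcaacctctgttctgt
Fblim1: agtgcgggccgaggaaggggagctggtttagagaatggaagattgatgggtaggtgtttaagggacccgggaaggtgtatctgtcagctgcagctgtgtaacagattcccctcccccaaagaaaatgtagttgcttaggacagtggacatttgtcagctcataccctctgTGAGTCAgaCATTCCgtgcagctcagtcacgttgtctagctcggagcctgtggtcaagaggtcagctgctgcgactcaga
Vcl: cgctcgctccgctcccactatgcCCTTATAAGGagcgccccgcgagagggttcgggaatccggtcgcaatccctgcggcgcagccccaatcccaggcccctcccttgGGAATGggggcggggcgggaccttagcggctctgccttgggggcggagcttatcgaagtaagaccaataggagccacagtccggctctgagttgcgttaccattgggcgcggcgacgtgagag
Fermt2: tccttcatttCCATAAAAGGgcagcgctcc

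The promoter table held 7 of the 9 genes with 9 start sites, and Pxn and Tgfb1i1 are not in it. Over the 250 bases before each start, searched on both strands, the CArG box occurred in 2 of the 9 windows, against 1.47% of 32851 promoter windows of the same length. These were Vcl and Fermt2, whose log2 ratios were -0.28 and -0.38. The TEAD core occurred in 4 of the 9 windows (Flna, Fblim1, Vcl and the later-listed start of Flnc), against 12.6% of all windows. The AP-1 site occurred in 2 of the 9 (Fblim1 and Zyx), against 6.75%. None of these matches overlapped another. The windows of Flna and Fblim1 held no CArG box in the searched letters. Whether any of these motifs bears on the measured signals was not tested. A match describes the sequence and is not a measured binding site.

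Tgfb1i1 and Pxn encode the closely related adaptors Hic-5, known to be induced by TGF-beta, and paxillin. Tgfb1i1 had a signal of 2060.1 with the Tmem132a siRNA and 3824.3 with the control siRNA on its single probe set 1418136_at, 53.9% of the control level (log2 ratio -0.89). Among the 1000 probe sets closest in signal, 17 had a ratio as low, and their SD was 0.37. In each of the 10 alternative settings Tgfb1i1 stayed between -0.90 and -0.87, lower by more than 1.5-fold and by less than 2-fold. With a single bright probe set, only the settings that rescale signals or ratios, or add a pseudocount, could change its value.

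Paxillin showed no such difference. Probe set 1456135_s_at of Pxn had signals of 564.4 with the Tmem132a siRNA and 557.1 with the control siRNA. Probe set 1424027_at had 314.2 with the Tmem132a siRNA and 239.7 with the control siRNA. The third, 1426085_a_at, was below the filter with 53.9 with the Tmem132a siRNA and 27.8 with the control siRNA. All were level or higher with the Tmem132a siRNA, and the gene value was 0.20. The log2 ratio of Tgfb1i1 lay 1.10 below that of Pxn, which was not tested.

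Zyx, the zyxin gene, had probe sets that disagreed in direction. The brighter, 1417240_at, had a signal of 3054.0 with the Tmem132a siRNA and 4035.1 with the control siRNA (log2 ratio -0.40). The dimmer, 1438552_x_at, had 247.3 with the Tmem132a siRNA and 127.4 with the control siRNA (0.96), and the x in its name marks probes that can also match other transcripts. Their mean of 0.28 describes neither, and with the brightest probe set, without x, s or a probe sets, or with a filter at the 75th percentile the value of Zyx was -0.40.

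Fermt2 encodes kindlin-2, which binds integrin tails, migfilin and integrin-linked kinase. Its probe set 1434180_at had 2619.6 with the Tmem132a siRNA and 3334.3 with the control siRNA. Probe set 1434181_at had 1215.5 with the Tmem132a siRNA and 1402.5 with the control siRNA. Probe set 1459324_at, the dimmest, had 67.2 with the Tmem132a siRNA and 101.5 with the control siRNA. All 3 were lower with the Tmem132a siRNA, with log2 ratios of -0.35, -0.21 and -0.59, and the gene value was -0.38. The SD of these ratios was 0.20, and 1875 of the 10678 genes (17.6%) had a ratio as low as the gene value. The dimmest probe set passed the filter through its control signal, and its signal with the Tmem132a siRNA lay below the threshold. With a filter at the 75th percentile, which leaves that probe set out, the gene value of Fermt2 was -0.28. The ratio of Fblim1 lay 1.49 below that of Fermt2, its binding partner.

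Vcl and Tln1 encode vinculin and talin-1. Vcl had signals of 7522.4 with the Tmem132a siRNA and 9318.7 with the control siRNA on 1416156_at, and 307.3 with the Tmem132a siRNA and 365.2 with the control siRNA on 1416157_at. These ratios were close, -0.31 and -0.25, and the gene value of -0.28 is 82.4% of the control level.

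Talin-1 was less uniform. Tln1 had 1057.8 with the Tmem132a siRNA and 1528.0 with the control siRNA on its brightest probe set, 1448402_at (log2 ratio -0.53). On 1436042_at it had 155.5 with the Tmem132a siRNA and 140.5 with the control siRNA (0.15). The third probe set, 1457782_at, had 7.4 with the Tmem132a siRNA and 70.6 with the control siRNA and did not pass the filter. The gene value was -0.19, and it was -0.89 with no filter, where the dim probe set enters at the floor of 14.5. The direction of Tln1 was the same in all 10 alternatives, and its size was not.

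**Figure D3:**
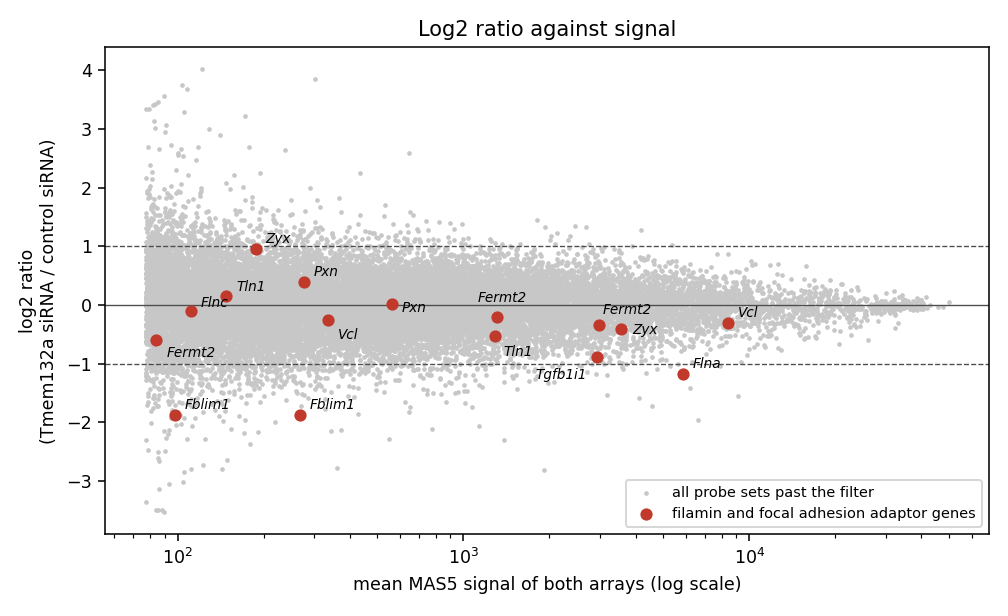
Log2 ratio (vertical axis) against mean MAS5 signal of both arrays (horizontal log axis) for the 22519 probe sets past the filter (grey) and those of the 9 genes (red, labelled). Flna at -1.18 lies at the lower edge of the cloud at its signal, while the bright probe sets of Vcl, Zyx and Fermt2 lie inside it.

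The probe sets also gave a scale for how much ratios differ within a gene. Across 5072 genes with several probe sets past the filter, log2 ratios scattered around their gene's mean with an SD of 0.39. That SD does not include differences between cultures, so it is no error for the difference between the groups. Among those of the 9 genes with several such probe sets, the SD of their ratios ran from 0.0024 for Fblim1 to 0.96 for Zyx.

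Genes that work with these proteins were compared as 6 lists, of which 80 genes passed the filter. Of the 80, 4 were at least 2-fold lower and 0 at least 2-fold higher, beside 2.44% and 2.10% of all genes. At 1.5-fold 13 were lower (16.2%, beside 9.10% of all genes) and 4 higher (5%, beside 8.83%). Their median log2 ratio was -0.12, and 48 of them (60%) lay below 0, beside 48.2% of all genes. The counts of single lists are small, and several moved with the settings. The lists were chosen with earlier results of these data known, so these shares describe the lists and test nothing.

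Other LIM proteins were measured by 21 genes, of which 4 were at least 1.5-fold lower and 1 higher, with 16 below 0 and a median of -0.34. With the brightest probe set 8 were at least 1.5-fold lower, without x, s or a probe sets 7, and with no filter 7 lower and 3 higher. Wtip, a zyxin-family LIM protein, had a signal of 152.3 with the Tmem132a siRNA and 392.6 with the control siRNA (log2 ratio -1.37). Lims2, which encodes the integrin-linked kinase partner PINCH2, had 315.1 with the Tmem132a siRNA and 161.7 with the control siRNA (0.96). Filamin-binding and related genes had a median of 0.32 over 11 genes, 2 at least 1.5-fold lower and 1 higher. Synpo2, an actin-bundling protein that binds filamin, stood at -1.13, with its 3 probe sets between -1.27 and -0.90 and a value of -0.77 with the pseudocount, and Cfap36, whose link to filamin is not certain, at 0.80. With a filter at the 75th percentile the median of that list was -0.46, on the other side of 0.

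Partners of talin, kindlin and integrin-linked kinase had a median of -0.18 over 10 genes, 1 of them at least 1.5-fold lower and 0 higher. That gene was Kank2, a talin-binding protein, with 460.2 with the Tmem132a siRNA and 1055.7 with the control siRNA on its brightest probe set and a gene ratio of -0.94. Rap1b, a small GTPase that acts upstream of talin, had a ratio of -0.37. Ilk, the integrin-linked kinase gene, stood at 4264.2 with the Tmem132a siRNA and 4331.9 with the control siRNA (-0.02). Genes of paxillin and FAK signalling had a median of 0.16 over 16 genes, 2 of them at least 1.5-fold lower and 1 higher. Pak2, a kinase downstream of Rac and Cdc42, had a ratio of -1.01 from probe sets at -1.33 and -0.70, and was under 2-fold with no filter (-0.90) and with the pseudocount (-0.82). Fyn, a Src-family kinase, had a ratio of 0.78.

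Linkers of adhesions to actin had a median of -0.05 over 13 genes, 2 of them at least 1.5-fold lower and 0 higher. These were Palld, which encodes the actin crosslinker palladin, at -0.73, and Vasp, an actin elongation factor that zyxin and migfilin bind, at -0.66. Vasp had signals of 2196.1 with the Tmem132a siRNA and 3468.3 with the control siRNA. Integrin subunits had a median of -0.23 over 9 genes, 2 at least 1.5-fold lower and 1 higher. The higher one, Itga9, lay at the threshold (0.59), and 0 integrin genes were 1.5-fold higher under median centring, quantile normalization, loess, the pseudocount or the 75th percentile filter. With no filter 3 integrin genes were at least 1.5-fold higher and 2 lower, and the median of the list was -0.007. Itga8 had a ratio of -1.40 and Itga1 one of -0.73, while Itgb1, the subunit shared by most of these receptors, stood at -0.26. Palld was under 1.5-fold lower with no filter (-0.35) and with the brightest probe set (-0.57), and Itga1 with no filter (-0.36) and with the pseudocount (-0.56).

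**Figure D4:**
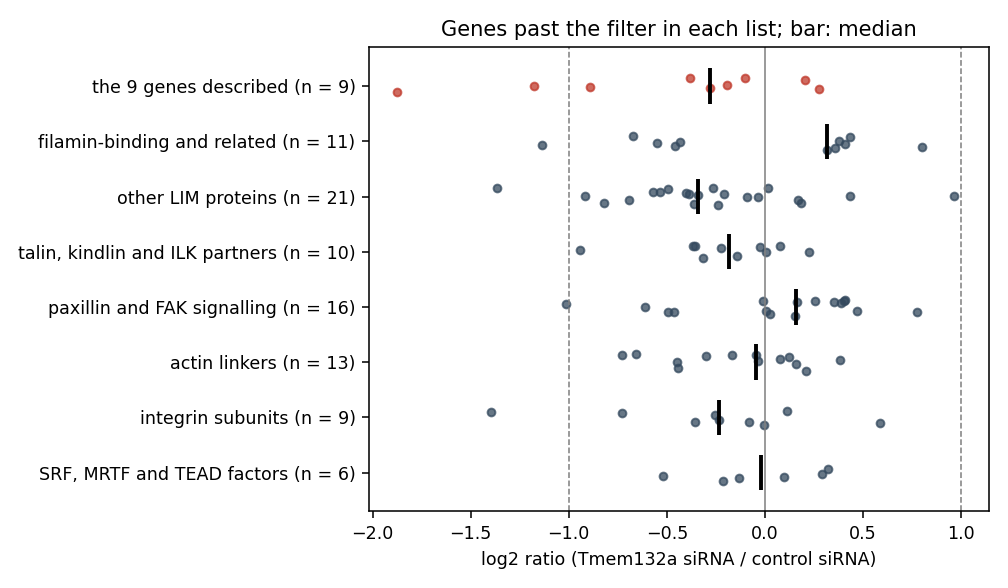
Log2 ratio (Tmem132a siRNA over control siRNA, horizontal axis) of each gene past the filter (points) in the 9 genes described and in 7 lists of related genes, with the median of each list as a bar and dashed lines at 2-fold. The medians of the lists run from -0.34 for other LIM proteins to 0.32 for filamin-binding and related genes.

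SRF, its MRTF cofactors and the TEAD factors with their coactivators were measured by 6 genes past the filter, with 0 at least 1.5-fold lower and 0 higher and a median of -0.02. Srf itself had 761.5 with the Tmem132a siRNA and 1623.7 with the control siRNA on its brightest probe set (-1.09), but its other probe set gave 0.05. Mrtfa had a ratio of 0.32. Yap1 had signals of 76.6 with the Tmem132a siRNA and 68.7 with the control siRNA, below the filter.

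Among markers of smooth muscle, which also carry contractile and adhesion genes, 3 of 8 passed the filter. All 3 were at least 1.5-fold lower, beside 9.10% of all genes. Acta2 had signals of 2712.7 with the Tmem132a siRNA and 10520.2 with the control siRNA (log2 ratio -1.96), and Actg2 had 386.2 with the Tmem132a siRNA and 1104.4 with the control siRNA (-1.52). Smtn, the smoothelin gene, had a ratio of -0.87. The Acta2 value rests on an s probe set that can match related actins, and with no filter it was -0.39. Neither Acta2 nor Actg2 had a value when x, s or a probe sets were left out. Myh11, Cnn1, Tagln, Des and Lmod1, the other markers of the list, had no signal above 45.9 with the Tmem132a siRNA or above 39.8 with the control siRNA. The summed signal of the list was 3325.6 with the Tmem132a siRNA and 11974.8 with the control siRNA. Most of that sum was the Acta2 probe set named above, so it does not describe the list as a whole. Whether smooth muscle cells were present in this line, and any part of theirs in the lower Flna, Fblim1 and Tgfb1i1 signals, was not tested. In bulk RNA, fewer cells of a type and less RNA per cell cannot be told apart.

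**Figure D5:**
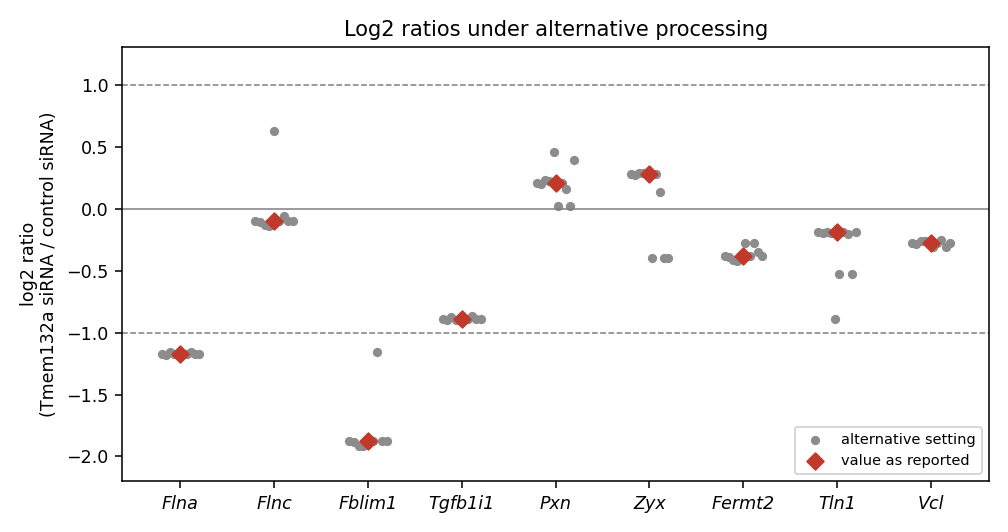
Log2 ratio (vertical axis) of each of the 9 genes as reported (red diamonds) and under up to 10 alternative settings (grey points), with dashed lines at 2-fold. Flna and Tgfb1i1, with 1 bright probe set each, hardly move (Flna from -1.18 to -1.16), whereas Zyx, Flnc and Tln1 depend on which probe sets are used.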

How the data were processed

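The authors deposited MAS5 signal intensity of each probe set, not log-transformed, as named in the series text and in the submitters' processing notes. Its version and scaling are not given in the sources used here. RNA was isolated with Trizol, per the labels. Both arrays had a 2% trimmed mean of about 496.3 and were set to 1 common value. Of 45101 probe sets 64 controls were left out. Names came from the platform annotation, in which 34945 probe sets had 1 symbol, 932 several and 9160 were not listed.

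A probe set passed the filter at a mean signal of at least 77.25, the median, and signals under 14.5, the 20th percentile, were raised to it. A gene's value is the mean log2 ratio of its probe sets past the filter. No test was possible with 1 array per group. Similar signal means the 1000 probe sets closest in mean signal.

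The members and lists were chosen with earlier results of these data known. Named are all members, Tmem132a, and of each list the genes past 2-fold or the 2 with the largest ratios. Others given as examples (Ilk, Itgb1, Itga9, Yap1, Phox2a, Nefl, Nefm, Smtn and further markers) were chosen after their values were seen. The steps were tested on simulated data, with changes placed only in brighter genes and the same scatter at every signal. Dim genes such as Fblim1 and Flnc were thus not covered. Computation used Python 3.11.15, numpy 2.4.6, pandas 2.3.3 and statsmodels 0.14.6, and plots matplotlib 3.10.9.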

Additional observations from a re-analysis of the deposited data

How the results depend on the processing

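The 10 alternatives were no rescaling, quantile normalization, centring on a median ratio of 0, a loess fit (span 0.3), no filter, a stricter filter at the 75th percentile (462.8), a pseudocount of 79.2, no floor, the brightest probe set alone, and leaving out x, s or a probe sets. Flna (-1.18 to -1.16) stayed at least 2-fold lower in all 10, and Fblim1 (-1.92 to -1.15) in the 9 in which it had a value. Flna and Tgfb1i1 each have 1 bright probe set, so the filter, floor and probe set choices could not change their values. With the 75th percentile filter, which removes Fblim1 and Flnc, 1 of the 7 remaining genes was at least 2-fold lower in place of 2 of 9. With no filter 1 of the 9 genes, Flnc, was at least 1.5-fold higher in place of 0.

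Counts over all genes followed the treatment of dim probe sets. The filters also change how many genes are counted, so the counts below are not shares of 1 set. With no filter, where all 18193 named genes are counted, 881 genes were at least 2-fold lower and 1312 higher, and 2207 and 2913 at 1.5-fold. With the 75th percentile filter, which keeps fewer genes than the filter used here, these counts were 90 and 44, and 462 and 391, with 3281 genes below 0. With the pseudocount they were 79 and 49, and 550 and 464, in place of 261 and 224, and 972 and 943. Among single genes and lists, 13 gene ratios, 1 list median and 46 list counts moved, of 762 values. A ratio or median was called moved if it changed by at least the SD of 0.39 given above. A count was called moved if it changed by more than 1.5-fold, or to or from none. Besides those in the report, Mbp (0.26), Erbb3 (0.68) and Epcam (0.12) moved with no filter. No paired analysis was possible because each group has 1 array. Low signal limits Flnc and the dim probe sets of Tln1, Pxn, Fblim1 and Fermt2.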

Other observations

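Markers of glia, immune cells, epithelium and endothelium were mostly below the filter. Of 6 measured glial genes 2 passed, Mbp at a log2 ratio of -0.18 and Erbb3, a neuregulin receptor, at 1.37, with signals of 332.6 with the Tmem132a siRNA and 128.9 with the control siRNA. Of 7 immune genes 2 passed, Csf1r at -0.10 and Laptm5 at 0.09, and of 8 epithelial and endothelial genes Epcam alone, at 1.04. Summed over all probe sets, most of them below the filter, the signals were 1078.6 with the Tmem132a siRNA and 729.6 with the control siRNA for glia, 788 with the Tmem132a siRNA and 622.2 with the control siRNA for immune cells, and 460.1 with the Tmem132a siRNA and 333.2 with the control siRNA for epithelium and endothelium. The median signal of all probe sets was also higher on the Tmem132a siRNA array, at 81.9 against 76.5 on the control siRNA array.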
